A study of Homo sapiens with 4 samples.

Results

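The variant rs10516821 is a single-base change, C or T, at position 89727979 of chromosome 4 in the deposited table. It was represented by 12 of the 7270 oligonucleotides of a reporter library of the FAM13A locus, and by 357 of the 218526 tags that mark those oligonucleotides. All table rows that carry its name were taken, which gives 6 constructs (3 windows, named L, C and R, each in the orientations F and RC) with both alleles of each. The variant was chosen by the size of its difference in RNA over plasmid reads between alleles, the largest of the locus, so every value that sets its T allele against its C allele is a description and has no test. In orientation RC the T allele gave less RNA per plasmid copy than the C allele in window R (11.1-fold with the minimal promoter and 2.68-fold with the SV40 promoter) and in window C (6.41-fold and 9.44-fold). The window R values rest on a T share of plasmid reads that was 6.45-fold higher in the minimal-promoter pool than in the SV40 pool. No such difference was seen beyond the spread of tags in the other constructs with enough tags. Of these, only window L of orientation F with SV40 had a range of 2 standard errors over tags that left out differences of 2-fold. No genome build for the position is given in the sources used here, so exon, intron and regulatory annotation were not analysed here.

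The study asked which variants of a locus tied to chronic obstructive pulmonary disease alter transcription in bronchial epithelium. The host was Beas-2B, an immortalised human bronchial epithelial cell line. There were 4 libraries: the plasmid pool with a minimal promoter (minP input), RNA from cells that received it (minP RNA), the pool with the simian virus 40 promoter (SV40 input) and RNA from its cells (SV40 RNA). RNA was taken 24 hours after nucleofection, each group held 1 library, and all errors are standard errors (SE) over tags, not over transfections.

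In a massively parallel reporter assay each synthetic fragment is placed beside a promoter on a plasmid and linked to several short tags that are transcribed with the reporter. The amount of a tag in RNA relative to its amount in the plasmid pool measures how much transcript each plasmid copy gave. A minimal promoter has little activity of its own and depends on the fragment, whereas the SV40 promoter is active by itself. The FAM13A locus has been tied to lung function and to chronic obstructive pulmonary disease in association studies.

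The tags are the only sequences the table holds, and each is 11 bases long. Those below are shown because the largest allelic differences, in windows R and C of orientation RC, were read from them. They are the 3 tags per allele with the most minP input reads, and the capitals mark the whole tag.
Window R, C allele, tag 1: CAAGCGTTCGT
Window R, C allele, tag 2: GCTACATGGTC
Window R, C allele, tag 3: CATAGATCCAT
Window R, T allele, tag 1: GCTGTTCAGAC
Window R, T allele, tag 2: CAGGACAAGTT
Window R, T allele, tag 3: AATCACGAGTA
Window C, C allele, tag 1: CTTGGCGTGCA
Window C, C allele, tag 2: CGAACTATCTG
Window C, C allele, tag 3: CGATTTGACAT
Window C, T allele, tag 1: CTTCAGCGAAC
Window C, T allele, tag 2: AGTCGTTTGCA
Window C, T allele, tag 3: GGAAGATACAG

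Among the tags of window R, the C-allele tag CAAGCGTTCGT had 623 reads in minP input, 269 in minP RNA, 323 in SV40 input and 688 in SV40 RNA. The T-allele tag GCTGTTCAGAC had 950 reads in minP input but 66 in minP RNA, and 97 in SV40 input and 29 in SV40 RNA. The T-allele tag CAGGACAAGTT likewise had 792 and 71 reads with minP, and 87 and 54 with SV40. So the T tags were more abundant than the C tag in the minP plasmid pool and less abundant in RNA, and in the SV40 pool they were scarce already as plasmid. Among the tags of window C, the C-allele tag CTTGGCGTGCA had 396 reads in minP input, 92 in minP RNA, 264 in SV40 input and 227 in SV40 RNA. The T-allele tag CTTCAGCGAAC had 393, 28, 192 and 22 reads in the same order. In window C the pairs of plasmid counts were thus close in the minP pool, and the RNA counts were apart in both.

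With minP there were 29398765 reads from plasmid and 11086933 from RNA, and with SV40 26557676 and 24504694. Tags with at least 10 input reads were kept, and for each the tag ratio is the log2 of RNA over input, each count raised by 1 and divided by its library total. Of the variant's tags, 294 passed with minP and 289 with SV40. No RNA read was found for 38 of the passing tags with minP, or 12.9%, against 13.6% over all tags, and for 15 with SV40, or 5.19% against 8.38%. Differences between alleles were taken only where each allele had at least 10 passing tags, which left 5 constructs with minP and 4 with SV40.

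Window R, orientation RC, held the largest difference with minP. Its C allele had 33 passing tags with 10166 input and 5598 RNA reads with minP, or 55.1 RNA reads per 100 input reads. Its T allele had 28 passing tags with 12778 input and 652 RNA reads, or 5.10 per 100, where the library as a whole had 37.7 per 100. The C allele lay above the library and the T allele well below it. The C tags had a mean tag ratio of 0.38 ± 0.15, with values from -1.61 to 1.83 and a median of 0.37. The T tags had a mean of -3.09 ± 0.17, with values from -5.27 to -1.19 and a median of -3.07. The allele groups overlapped in only a few tags, since 31 of the 33 C tags lay above every T tag and 26 of the 28 T tags lay below every C tag. The T minus C difference was -3.47 ± 0.23 on the log2 scale, which is 11.1-fold, the first of 3469 constructs by size. The next construct of another variant was that of rs6857969 in window C, orientation F, at 8.35-fold.

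With SV40 the C allele of window R, orientation RC, had 10124 input and 12736 RNA reads over 33 tags, or 126 RNA reads per 100 input reads. The T allele had 1728 input and 781 RNA reads over 27 tags, or 45.2 per 100, where the library as a whole had 92.3. The mean tag ratio was 0.27 ± 0.17 for C and -1.15 ± 0.16 for T. Here 8 of the 33 C tags lay above every T tag, so the alleles overlapped more than with minP. T minus C was -1.42 ± 0.23, or 2.68-fold, and stood in place 110 of 3439 constructs. The direction was that of minP with the same tags, and the size was smaller.

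Both the minP and the SV40 value of this construct rest on plasmid counts of the T oligonucleotide that differed between the pools. Over the 27 tags that passed in both pools, its share of input reads was 6.45-fold higher in the minP pool than in the SV40 pool (2.69 ± 0.14 on the log2 scale), and 27 of 27 tags moved that way, by 1.18 to 3.76. This was the second highest change of 6688 oligonucleotides with at least 10 such tags, whose median was -0.056 and of which 18, or 0.269%, had changed at least 4-fold. The C oligonucleotide of the same construct had changed by -0.11 ± 0.097. In RNA the T oligonucleotide's share was 0.73 ± 0.23 higher with minP, or 1.66-fold, and that of C differed by -0.0064 ± 0.051. In RNA reads alone T minus C was -3.00 with minP and -3.59 with SV40, and in input reads alone 0.47 and -2.17. The RNA values of the 2 libraries thus lay on the same side of 0, and the input values lay on opposite sides of 0. The part of the plasmid count in either value, or in the difference between the libraries, was not tested.

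Window C, orientation RC, held the largest difference with SV40. With minP its C allele had 5327 input and 3449 RNA reads over 30 tags, and its T allele 6955 input and 662 RNA reads over 32 tags. These are 64.7 and 9.52 RNA reads per 100 input reads. The mean tag ratio was 0.18 ± 0.33 for C and -2.50 ± 0.25 for T, and T minus C was -2.68 ± 0.41, or 6.41-fold, at rank 6 of 3469. The C tags ranged from -4.48 to 2.66 and the T tags from -5.86 to 0.78. The alleles thus overlapped over most of the T range, although 14 of 30 C tags lay above every T tag and 1 of 32 T tags lay above the C median.

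With SV40 the C allele of window C, orientation RC, had 5280 input and 7468 RNA reads, and the T allele 5156 input and 939 RNA reads. These are 141 and 18.2 RNA reads per 100 input reads. The mean tag ratio was 0.082 ± 0.29 for C and -3.16 ± 0.26 for T. T minus C was -3.24 ± 0.39, or 9.44-fold, the first of 3439 constructs, where the next of another variant was rs7671167 in the same window and orientation at 8.08-fold. In this construct the plasmid counts of the alleles lay close together in both pools, with T minus C of 0.27 in input reads alone with minP and -0.18 with SV40. In RNA reads alone T minus C was -2.41 with minP and -3.41 with SV40. The difference in window C thus stood in RNA reads with and without division by the input.

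Window L of orientation RC was measured from few plasmid reads. With minP the C allele had 534 input and 139 RNA reads over 18 tags, and 10 of these tags had no RNA read, which is 55.6% (exact Clopper-Pearson interval at 95%, 30.8 to 78.5, counting error only). The T allele had 492 input and 73 RNA reads over 13 tags, and 6 had no RNA read. The mean tag ratios were -1.72 ± 0.46 for C and -1.85 ± 0.47 for T, and T minus C was -0.13 ± 0.66. With SV40 the C allele had 552 input and 523 RNA reads and the T allele 737 and 351, each over 18 tags, and T minus C was -0.88 ± 0.71. In neither library did the alleles of window L differ by more than 2 SE. The range of 2 SE on either side ran from -1.44 to 1.19 with minP and from -2.29 to 0.53 with SV40, so differences of 2-fold were not detectable at this depth.

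In orientation F no difference that was taken reached those of windows R and C in orientation RC. Few plasmid reads of the T oligonucleotides limited windows C and R of orientation F. In window L the difference was larger in F than in RC with minP, and smaller with SV40. In window L the C allele had 9651 input and 4330 RNA reads with minP over 29 tags, and the T allele 6670 and 1776 over 30 tags. T minus C was -0.73 ± 0.40 there. With SV40 the reads were 10635 and 9286 for C and 5828 and 3425 for T, and T minus C was -0.16 ± 0.35. These were the best sampled constructs of orientation F, and neither difference was as large as 2 SE.

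In window C of orientation F the C allele had 3757 input and 1738 RNA reads over 28 tags with minP, but the T allele had 266 and 191 over 14 tags. T minus C was 0.80 ± 0.65, and it was -0.39 when the tag medians were compared instead of the means. With SV40 only 9 T tags passed, with 228 input and 423 RNA reads, and 1 tag held 62.9% of those RNA reads. In window R of orientation F the C allele had 3313 input and 1521 RNA reads with minP over 30 tags. The T allele of that construct had 161 and 111 reads over 9 tags, 7 of them with no RNA read, and 1 tag held 103 of the 111. With SV40 it had 92 input and 7 RNA reads over 4 tags, so no difference was taken there. The direction of the T allele in windows C and R of orientation F could therefore not be read at this depth.

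Counted together, 2 of the 5 constructs with minP and 2 of the 4 with SV40 had a C allele at least 2-fold higher, the same constructs in both. Over all constructs 3.32% with minP and 5.35% with SV40 had the alphabetically earlier allele higher by that much, and 7.41% and 10.3% had either allele higher. Past 4-fold stood 2 constructs of the variant with minP and 1 with SV40, against 0.577% and 0.756% of all constructs. Nothing is read from these shares, because they come from the contrast that chose the variant. The constructs in windows R and C share the variant, and the pools share the tags, so the 4 values are not independent of one another.

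Tag ratios of the same tags followed each other between the pools to different degrees. Across tags Pearson's r between the minP and SV40 ratios was 0.93 for the C allele in window L, orientation F (29 tags), and 0.80 for the C allele in window R, orientation RC (33 tags). In orientation RC it was 0.50 for the T allele of window C (32 tags), and 0.074 for the T allele of window R in that orientation (27 tags). The variant's other oligonucleotides with at least 10 such tags ran from 0.63 (T, window L, orientation RC, 11 tags) to 0.91 (C, window C, orientation RC, 30 tags). Among them the T allele of window L, orientation F, stood at 0.69 (30 tags). These are descriptions across tags of single libraries, and tags share their plasmid pool and its depth. The lowest r belonged to the T oligonucleotide whose plasmid share differed most between the pools among those of the variant. Its log2 input counts had an r of 0.58 between the pools, and its median RNA count with minP was 17 reads. Whether the plasmid share bears on its r was not tested.

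The level of the fragment itself was taken as the mean of both alleles minus that of the average tag in its library. With minP it was 0.45 ± 0.33 in window C and 0.12 ± 0.20 in window L of orientation F. In orientation RC it was -1.00 ± 0.33 in window L, -0.38 ± 0.21 in window C and -0.58 ± 0.12 in window R. The quartiles over all constructs were -0.50 and 0.56, so windows L and R of orientation RC lay below the lower one and the other constructs between them. With SV40 the values were 0.25 ± 0.18 in window L, orientation F, and -1.09 ± 0.35, -0.52 ± 0.19 and 0.57 ± 0.12 in windows L, C and R of orientation RC, with quartiles of -0.66 and 0.65. In windows R and C of orientation RC these averages join alleles that lay far apart, and the T values that chose the variant enter them. With minP the C and T alleles stood at 1.16 and -2.31 in window R, and at 0.96 and -1.72 in window C. With SV40 they stood at 1.28 and -0.14 in window R, and at 1.09 and -2.14 in window C. The low minP average of window R was thus that of its T allele, not of its C allele.

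Whether the fragment acts alike in both orientations was tested in window L, whose values did not choose the variant. Allele-averaged tag ratios were higher in orientation F than in RC by 1.12 ± 0.38 with minP (29 C and 30 T tags against 18 and 13, two-sided permutation test over tags, 100000 resamples, Benjamini-Hochberg adjusted p = 0.00936). With SV40 the difference was 1.34 ± 0.39 (permutation test, adjusted p = 0.00100), or 2.53-fold. Such differences were common: 43.8% of 1661 units of 1 variant in 1 window passed with minP and 46.1% of 1633 with SV40. The minP call did not stand when tags with 1 to 9 input reads were admitted (0.18, permutation test, adjusted p = 0.734), nor the SV40 call when tags with no RNA read were left out (0.81, permutation test, adjusted p = 0.0589). In summed SV40 reads, RNA per 100 input reads was 87.3 in F and 94.7 in RC for C, and 58.8 and 47.6 for T. The SV40 difference of tag means was thus not seen in summed reads of the C allele. With minP the sums were 44.9 and 26.0 for C, and 26.6 and 14.8 for T. Median SV40 input of the RC tags was 24.5 (C) and 38.5 (T) reads, against 373 and 216 in F. In window C, whose T values helped to choose the variant, the difference of F minus RC with minP was 0.84 ± 0.39 and is given without a test. These tests compare tags within 1 library per group, so their p-values measure the spread between tags.

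Between windows L and C of orientation F the allele-averaged ratio differed by -0.34 ± 0.38 with minP (permutation test, adjusted p = 0.497), while 37.9% of 3347 window pairs passed in that library. The range of 2 SE on either side of that value ran from -1.10 to 0.43. In orientation RC the pairs of windows are given without a test for the reason above. With minP, C minus R was 0.19 ± 0.24, L minus R was -0.43 ± 0.35 and L minus C was -0.62 ± 0.39. With SV40, C minus R was -1.10 ± 0.23, L minus R was -1.66 ± 0.37 and L minus C was -0.56 ± 0.40. Window R thus had the highest allele-averaged ratio with SV40. By allele, the SV40 means in windows R, C and L were 0.27, 0.082 and -1.66 for C, and -1.15, -3.16 and -2.54 for T. The T oligonucleotide of window R had few plasmid reads in the SV40 pool. Whether this bears on the order of the windows was not tested.

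Between the promoter libraries, each centred on its median tag ratio, the allele-averaged level of window L differed by -0.080 ± 0.11 in orientation F (29 C and 30 T tags in both pools, sign-flip permutation test over tags, adjusted p = 0.715). It differed by 0.60 ± 0.32 in orientation RC (11 tags of each allele, adjusted p = 0.301, permutation test). Neither passed, where 8.54% of 3278 constructs did, 3.69% lower and 4.85% higher with minP. With 1 library per group this compares the libraries and not the promoters. Window R of orientation RC differed by -1.03 ± 0.13, which is given without a test. By allele, and before the libraries were centred, minP minus SV40 there was 0.11 ± 0.10 for C and -1.95 ± 0.23 for T, with 27 of 27 T tags lower.

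No other variant of the library lay within 200 positions of rs10516821. The nearest were rs1870339 (C or G), 323 positions below it at 89727656, and rs2869949 (A or G), 898 above it at 89728877. For rs1870339 the later minus earlier allele differences over 6 constructs ran from -0.79 to 0.77 with minP and from -1.00 to 0.99 with SV40. For rs2869949 they ran from -0.16 to 0.61 with minP and from -0.81 to 0.57 with SV40. None of the 6 constructs of either neighbour reached 2-fold in either library, where 7.41% of all constructs did with minP and 10.3% with SV40. For rs1870339 with SV40 the extremes lay just short of 2-fold, with SE from 0.38 to 0.76 over its constructs. Nothing is read from the absence of larger differences among so few constructs. Allele-averaged levels of the neighbours ran from -0.70 to 0.62 (rs1870339) and from -1.04 to 0.79 (rs2869949) with minP. With SV40 they ran from -0.73 to 1.10 (rs1870339) and from -1.64 to 1.35 (rs2869949).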

How the data were processed

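The members and comparisons were chosen with earlier results of these data known. The authors deposited 1 table of read counts, whole numbers for each tag and library (36-nt single reads, per the labels). How reads were assigned to tags is not given in the sources used here, and no molecular identifiers were stated, so reads are not independent molecules. Counts were used as deposited. The filters were 10 input reads per tag and 10 tags per allele, with 1 added to each count. With 1 library per group no count model was fitted.

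Orientation, window and promoter-library differences were tested on the mean of both alleles, over all variants, by permuting names or flipping signs over tags within each allele (100000 resamples, smallest p 1e-05). Benjamini-Hochberg adjustment at 0.05 was made apart for orientation and for window within each library. For the promoter libraries it was made once over all constructs tested. The scripts were tested on simulated data. The planned tests of units that hold window C or R of orientation RC were run, but their p-values are not printed, because the T values that chose the variant enter them. Tags were shown, and neighbours named, by rules on input reads (3 per allele, in constructs past 4-fold) and on distance (200 positions, or the nearest on each side). The alternatives tried were a minimum of 1 or 50 input reads, 0.5 added to each count, leaving out tags without RNA reads or tags beginning with TC, trimming 10% from both ends, medians, summed counts, and RNA or input alone. Centring on the mean tag ratio was added after seeing the data. Python 3.11.15, numpy 2.4.6, pandas 2.3.3 and numba 0.67.0 were used.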

Additional observations from a re-analysis of the deposited data

How the results depend on the processing

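The count of constructs with the C allele at least 2-fold higher was 2 with minP and 2 with SV40. From RNA counts alone it was 4 with minP, and from input counts alone it was 1 with either library. With SV40 it was 3 with a pseudocount of 0.5, with a minimum of 1 input read and in RNA counts alone. The share over all constructs was not taken under these alternatives, so nothing is read from these counts. In input counts alone T minus C with minP turned to 0.27 in window C and 0.47 in window R of orientation RC. Of 86 single allelic values under the alternatives, 69 moved by less than their SE. With a minimum of 50 input reads fewer units could be tested, and calls over all variants fell from 727 to 346 (orientation, minP), from 752 to 358 (orientation, SV40), from 1270 to 788 (window, minP) and from 1445 to 834 (window, SV40). Without tags at 0 RNA reads there were 832 window calls with minP. With a pseudocount of 0.5 the promoter-library calls fell from 280 to 178, and the cause was not tested. The difference of window L, orientation RC, between the promoter libraries passed with a minimum of 1 input read (0.91, permutation test, adjusted p = 0.0336). Replicate libraries could not be paired because each group held 1 library, and the promoter-library test paired tags only. Depth limited window L of orientation RC and the T allele of orientation F in windows C and R, where no value could be had with a minimum of 50 input reads.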

Other observations

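Of the variant's tags, 63 had fewer than 10 input reads with minP and 68 with SV40, and these held 649 and 1649 RNA reads. No input read was listed for 29 tags with minP and 32 with SV40, and 14 and 18 of these had RNA reads all the same. Tags without input reads were not counted over the whole library. At least 10 input reads were found for 294 (minP) and 289 (SV40) of the variant's 357 tags. Over all 218526 tags the counts were 195477 and 192818, a higher share in both. The tags of the C allele averaged 49.6% G and C bases (SD 8.56, 186 tags) and those of the T allele 50.1% (SD 9.22, 171 tags), against 49.9% over all tags of the library. Tags that begin with TC were 3 of the 186 C tags and 5 of the 171 T tags, against 3356 of all 218526 tags.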
